A study of Mus musculus with 45 samples.

Results

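Caspase-8 loss was added here to the loss of FADD and MLKL in the mouse ileum. The comparison used 10 of the 45 arrays of the series, chosen by the genotype in the sample title. The 5 FADD IEC-KO CASP8 IEC-KO Mlkl -/- mice lacked Fadd and Casp8 in intestinal epithelial cells (IEC) and Mlkl in all cells, and they are called triple mutants below. The 5 FADD IEC-KO Mlkl -/- mice lacked Fadd in intestinal epithelial cells and Mlkl in all cells, and they are called FADD MLKL mutants below. Both groups therefore share the epithelial Fadd deletion and the Mlkl mutation, and caspase-8 is the difference that the titles name. The labels give an age of 11 weeks, a specific pathogen free housing, a regular chow diet and no treatment.

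FADD is the adaptor that couples death receptors to caspase-8. Caspase-8 starts apoptosis, and it also cleaves the kinases RIPK1 and RIPK3 and so holds back necroptosis, the lytic death that RIPK3 starts by phosphorylating the pore-forming protein MLKL. Without FADD, caspase-8 is still made but is not recruited to death receptors, and it can still be drawn into other complexes, inflammasomes among them. In the ileum, epithelial cells without FADD or caspase-8 are known to die, and Paneth cells, the crypt cells that secrete antimicrobial alpha-defensins and lysozyme, are known to be lost.

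Total RNA of frozen ileum was labelled and hybridised to 1 whole-transcript array per mouse, and 5 mice per group limit the precision. The other 7 groups, of 5 mice each, were CASP8 IEC-KO Mlkl -/-, FADD IEC-KO RIPK3 IEC-KO, FADD IEC-KO Zbp1 -/-, FADD IEC-KO, CASP8 IEC-KO, Fadd fl/fl and Casp8 fl/fl mice. They entered the fit so that each gene had 1 shared estimate of its spread over 36 residual degrees of freedom. Array medians lay between 6.36 and 6.44 on the log2 scale, and no pair of arrays held identical values. The tissue is whole ileum, so cells other than epithelium kept their floxed genes, and fewer cells of a type and less RNA per cell cannot be told apart. The Cre line is not named in these sources. The labels do not say whether the mice were littermates, so p-values measure the spread between these samples only. The genotype field of the triple mutants names only CASP8 IEC-KO Mlkl -/-, and their titles, which add FADD IEC-KO, were followed. All triple mutants carry title numbers of 200 and over and all FADD MLKL mutants carry numbers under 100. The meaning of these numbers is not given, and in this comparison number series and genotype cannot be told apart, except as far as the other 7 groups allow an estimate.

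Both groups carried the markers that define ileum. Fabp6, the ileal bile acid binding protein, averaged 12.55 ± 0.13 in triple mutants and 12.74 ± 0.12 in FADD MLKL mutants (log2 intensity, SD, n = 5 each). Slc10a2, the ileal bile acid transporter, averaged 11.64 in triple mutants and 11.41 in FADD MLKL mutants, and neither it nor Slc51b nor Fgf15 passed the test (adjusted p = 0.176, 0.738 and 0.286 from limma). The sex of the mice is not in the labels, and Y-linked signal was high in 3 and low in 2 mice of each group.

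The targeted genes were read first, because they check the labels. Casp8 measured 9.60, 9.46, 9.52, 9.49 and 9.68 in the triple mutants, against 11.24, 11.37, 11.36, 11.31 and 11.39 in the FADD MLKL mutants. The groups were far apart, and Casp8 had the smallest p of all genes tested: it fell by 1.78 on the log2 scale (SE 0.14, adjusted p = 5.28e-12). Fadd measured 6.10, 5.34, 6.52, 6.27 and 6.02 in triple mutants, against 5.98, 6.19, 6.46, 5.99 and 5.94 in FADD MLKL mutants. The groups overlapped (difference -0.06, adjusted p = 0.892). Both lay below the 2 groups of floxed mice, whose Fadd means were 7.53 in Fadd fl/fl mice and 7.43 in Casp8 fl/fl mice, so the triple mutants carried the low Fadd signal that their titles state and their genotype field leaves out.

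Mlkl, the executor of necroptosis, was lower in the triple mutants although both groups are Mlkl -/-. It measured 7.18, 6.94, 7.31, 6.94 and 7.32 in triple mutants, against 7.89, 8.12, 7.997, 7.85 and 8.39 in FADD MLKL mutants. The groups did not overlap, and Mlkl fell by 0.91 (SE 0.20, adjusted p = 0.00267). Among floxed mice its mean was 8.66 in Fadd fl/fl mice and 8.62 in Casp8 fl/fl mice. The place of the Mlkl probes relative to the deleted part is not known, so the remaining signal checks nothing about the protein. Ripk3 averaged 8.44 ± 0.13 in triple mutants and 8.73 ± 0.13 in FADD MLKL mutants, and its difference did not pass (-0.28, adjusted p = 0.318). Zbp1, the nucleic acid sensor upstream of RIPK3, averaged 8.04 ± 0.23 in triple mutants and 7.92 ± 0.18 in FADD MLKL mutants (adjusted p = 0.878).

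**Figure D1:**
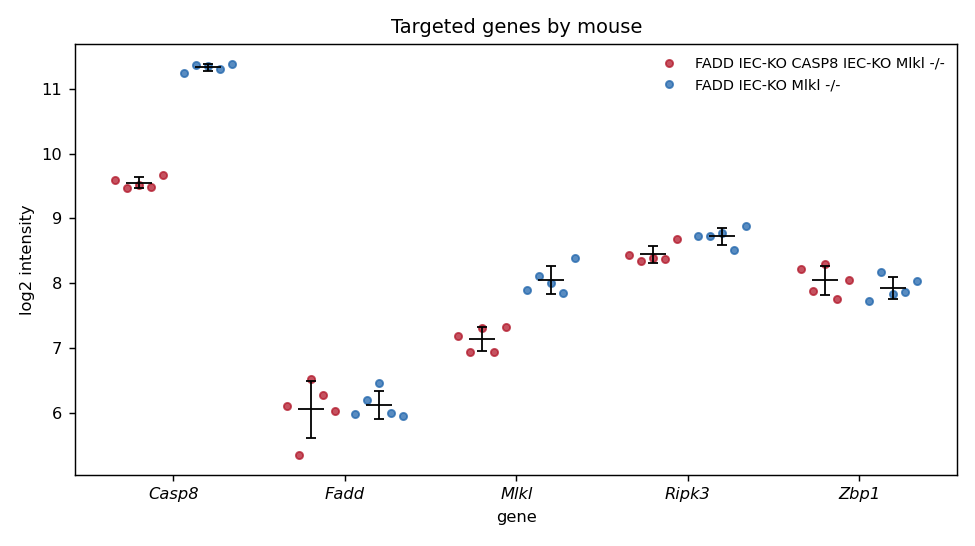
Log2 intensity of the targeted genes by mouse. Each point is 1 mouse, triple mutants in red and to the left of FADD MLKL mutants in blue, and bars give the mean and SD. Casp8 and Mlkl separate the groups, with means of 9.55 and 7.14 in triple mutants and of 11.34 and 8.05 in FADD MLKL mutants, while Fadd, Ripk3 and Zbp1 overlap.

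Across 19494 genes, 1533 (7.86%) differed at an adjusted p under 0.05. Of these, 1074 (5.51%) were higher and 459 (2.35%) lower in the triple mutants, and 94 genes (0.482%) changed at least 2-fold, 83 upwards and 11 downwards. The mice of both groups separated completely, in either direction, for 1200 of the called genes. Complete separation also occurred for 1340 genes upwards (6.87%) and 787 downwards (4.04%) whether called or not. The median log2 difference over all genes was 0.01. The balance of the calls moved with the scaling: quantile normalisation gave 866 higher and 901 lower, and centring each array on its median gave 881 higher and 635 lower. With the title number series as a term, estimated from the other 7 groups, 410 genes (2.1%) were called higher and 257 (1.32%) lower. All 1533 genes kept their sign in that fit, 576 of them were called in both fits, and the series term itself reached an adjusted p under 0.05 for 0 genes in limma, with 2670 at an unadjusted p under 0.05. Leaving out triple mutant replicate 1 left 935 called genes.

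A pair of genes with small adjusted p is named here after their values were seen. Prss30, a serine protease, averaged 9.36 ± 0.08 in triple mutants and 8.26 ± 0.12 in FADD MLKL mutants (log2 fold change 1.10, adjusted p = 1.19e-08). Cideb, a lipid droplet protein needed for lipoprotein assembly, averaged 10.53 ± 0.12 in triple mutants and 9.75 ± 0.11 in FADD MLKL mutants (0.78, adjusted p = 1.52e-07). Both genes were higher in every triple mutant than in any FADD MLKL mutant.

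**Figure D2:**
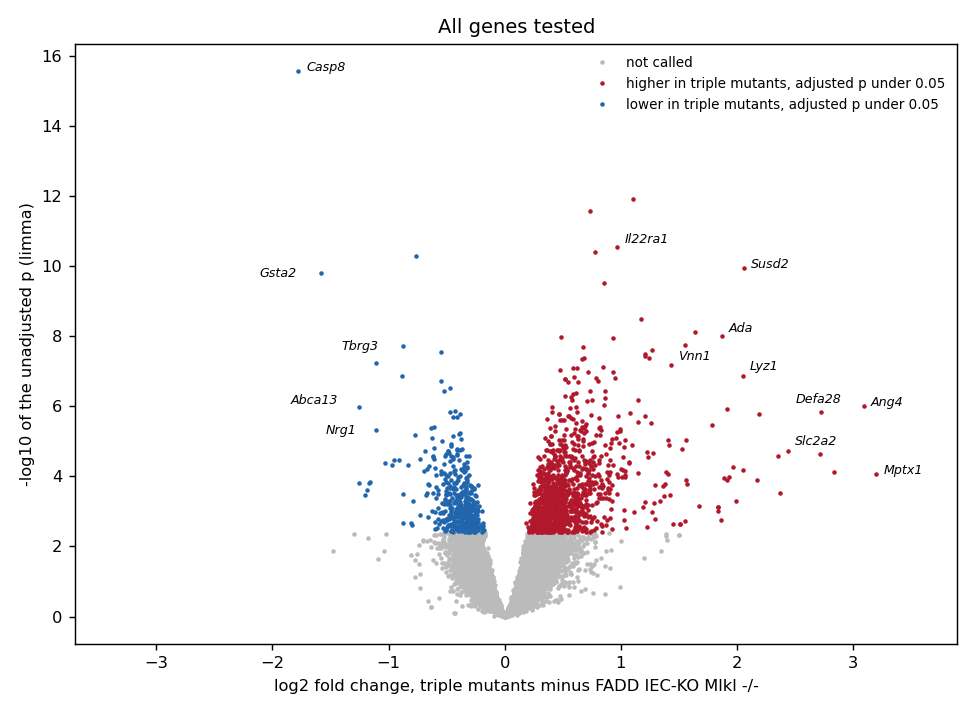
Difference of each of the 19494 genes, triple mutants minus FADD MLKL mutants, on the log2 scale against minus log10 of the unadjusted p from limma. Red genes were called higher (1074) and blue genes lower (459) in triple mutants. Casp8 stands alone at the top left, and Paneth cell genes and Slc2a2 lie farthest to the right.

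Alpha-defensins, the antimicrobial peptides of Paneth cell granules, showed some of the largest differences. They lie in 1 cluster on chromosome 8, and many are near-identical copies whose probes can share signal. The 250 bases before the start of 4 members are shown, Defa28 and Defa41 as members with large rises and Defa22 and Defa20 as members that did not pass, with near-identical promoters. They come from RefSeq on GRCm38.p6, from which promoters of 9 of the 16 measured members were kept. Capitals mark the motif TATAAA, searched on both strands. The regions are chr8:21582777-21583026 for Defa28, chr8:21201354-21201603 for Defa41, chr8:21162027-21162276 for Defa22 and chr8:21509008-21509257 for Defa20, all on the plus strand.
Defa28: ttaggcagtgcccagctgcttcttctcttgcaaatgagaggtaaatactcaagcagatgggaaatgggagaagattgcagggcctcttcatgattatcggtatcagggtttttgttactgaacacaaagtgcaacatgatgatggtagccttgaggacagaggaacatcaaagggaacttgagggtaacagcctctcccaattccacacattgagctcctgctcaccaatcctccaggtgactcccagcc
Defa41: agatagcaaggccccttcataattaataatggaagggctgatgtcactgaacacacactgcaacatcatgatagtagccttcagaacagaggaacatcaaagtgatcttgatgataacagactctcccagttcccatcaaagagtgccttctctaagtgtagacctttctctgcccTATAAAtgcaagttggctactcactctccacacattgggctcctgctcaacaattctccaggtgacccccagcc
Defa22: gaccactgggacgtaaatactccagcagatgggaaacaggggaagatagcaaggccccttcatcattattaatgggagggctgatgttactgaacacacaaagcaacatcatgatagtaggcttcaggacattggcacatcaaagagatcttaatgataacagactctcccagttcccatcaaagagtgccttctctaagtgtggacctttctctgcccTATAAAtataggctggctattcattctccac
Defa20: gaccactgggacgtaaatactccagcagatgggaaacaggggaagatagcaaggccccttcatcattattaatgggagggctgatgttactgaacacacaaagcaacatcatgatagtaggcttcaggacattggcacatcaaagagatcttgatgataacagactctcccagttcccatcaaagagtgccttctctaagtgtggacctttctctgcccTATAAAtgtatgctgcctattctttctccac
The motif was chosen after the results were seen, and a match is a description of letters only. It occurred in 8 of the 9 promoters, against 12.4% of the 32851 RefSeq promoters of the same length. Several of the 9 are near-copies, such as Defa35 and Defa37 with 245 shared bases, so they are not independent examples. The motif begins 74 bases before the start in Defa41 and 31 bases before it in Defa22 and Defa20. The Defa28 window does not hold these letters. Position by position, Defa20 and Defa22 shared 245 of 250 bases, Defa28 and Defa41 shared 103, and Defa21 and Defa22 were identical. The windows were not aligned, so a shift of the annotated start lowers such a count and moves the motif. Defa35 and Defa41 shared 70 bases in this way, with the motif 46 and 74 bases before the start.

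Defa28, the alpha-defensin with the largest difference, measured 8.24, 7.96, 8.34, 8.54 and 7.95 in triple mutants, against 6.53, 5.39, 4.60, 6.31 and 4.57 in FADD MLKL mutants. Every triple mutant lay above every FADD MLKL mutant, and the FADD MLKL mutants were spread over a much wider range. The log2 fold change was 2.73 ± 0.48 (SE), a 6.61-fold rise (adjusted p = 0.000413). Defa26 measured 10.53, 10.33, 10.41, 10.64 and 10.17 in triple mutants, against 8.50, 7.80, 7.28, 8.51 and 7.80 in FADD MLKL mutants (2.44 ± 0.50, adjusted p = 0.00197). Defa34 measured 11.85, 11.70, 11.73, 11.76 and 11.54 in triple mutants, against 10.41, 9.26, 8.52, 9.57 and 8.95 in FADD MLKL mutants (2.37 ± 0.60, adjusted p = 0.00971). In all 3 genes the groups were apart, and in FADD MLKL mutants replicate 3 was lowest or next to lowest. Defa41 rose by 2.35 ± 0.50 (adjusted p = 0.00236), with 10.44 to 10.88 in triple mutants and 7.08 to 9.68 in FADD MLKL mutants.

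Of the 16 measured alpha-defensins, 12 rose and 0 fell, where 5.51% of all genes were called higher, and their median log2 difference was 1.70 against 0.01 over all genes. Defa20, Defa21, Defa22 and Defa25 did not pass, at differences of 1.50, 1.35, 1.40 and 0.78 with adjusted p of 0.0553, 0.105, 0.0694 and 0.151. Mice overlapped in Defa25 only, and the other 15 members separated the groups, as 6.87% of all genes did upwards. Defa3 and Defa17 held identical values and are 1 measurement. The mean over the 16 members was 11.42, 11.26, 11.32, 11.46 and 11.17 in triple mutants, against 10.44, 9.51, 8.76, 9.79 and 9.28 in FADD MLKL mutants. The triple mutants thus differed little from each other, while FADD MLKL mutant replicate 1 was high and replicate 3 low within their group. The count fell to 6 without FADD MLKL mutant replicate 3, to 7 without replicate 5, and to 7 with the title number series as a term.

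Other Paneth cell genes moved the same way, with 8 of 13 measured members higher, 0 lower and a median of 0.90. Over all genes 5.51% were called higher. Mptx1, a mucosal pentraxin, measured 10.27, 9.92, 9.84, 10.84 and 10.37 in triple mutants, against 9.12, 6.78, 5.87, 7.05 and 6.41 in FADD MLKL mutants. It had the largest rise of all genes named, 3.20 ± 0.73 on the log2 scale or 9.18-fold (adjusted p = 0.00473), and FADD MLKL mutant replicate 1 stood above the other mice of its group. Ang4, an angiogenin with microbicidal activity, measured 10.00, 10.24, 9.94, 11.03 and 10.07 in triple mutants, against 8.96, 6.96, 6.27, 7.36 and 6.26 in FADD MLKL mutants (3.09 ± 0.54, 8.53-fold, adjusted p = 0.000329). Mptx2 measured 10.73, 10.39, 10.29, 10.83 and 10.52 in triple mutants, against 9.15, 7.69, 6.54, 7.89 and 7.30 in FADD MLKL mutants (2.84 ± 0.65, adjusted p = 0.00438). The groups were apart in all 3 genes, and the same FADD MLKL mutant was the highest of its group each time.

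Clps, the cofactor of pancreatic lipase, measured 8.66, 8.68, 8.49, 9.63 and 8.60 in triple mutants, against 7.19, 6.48, 6.17, 6.71 and 6.56 in FADD MLKL mutants (2.19 ± 0.39, adjusted p = 0.000449). Lyz1, the lysozyme of Paneth cells, averaged 11.83 ± 0.21 in triple mutants and 9.78 ± 0.66 in FADD MLKL mutants (2.05 ± 0.32, adjusted p = 7.76e-05). Lyz2, the lysozyme of macrophages and a near copy of Lyz1, rose by 1.30 ± 0.31 (adjusted p = 0.00734), and its probes may share signal with Lyz1. Itln1, the lectin intelectin, rose by 1.41 (adjusted p = 0.00479). Mmp7, the metalloproteinase that activates alpha-defensins in mice, did not pass at 9.18 ± 0.11 in triple mutants and 8.80 ± 0.17 in FADD MLKL mutants (adjusted p = 0.402), although its groups did not overlap. With the title number series as a term 5 of these markers were called.

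**Figure D3:**
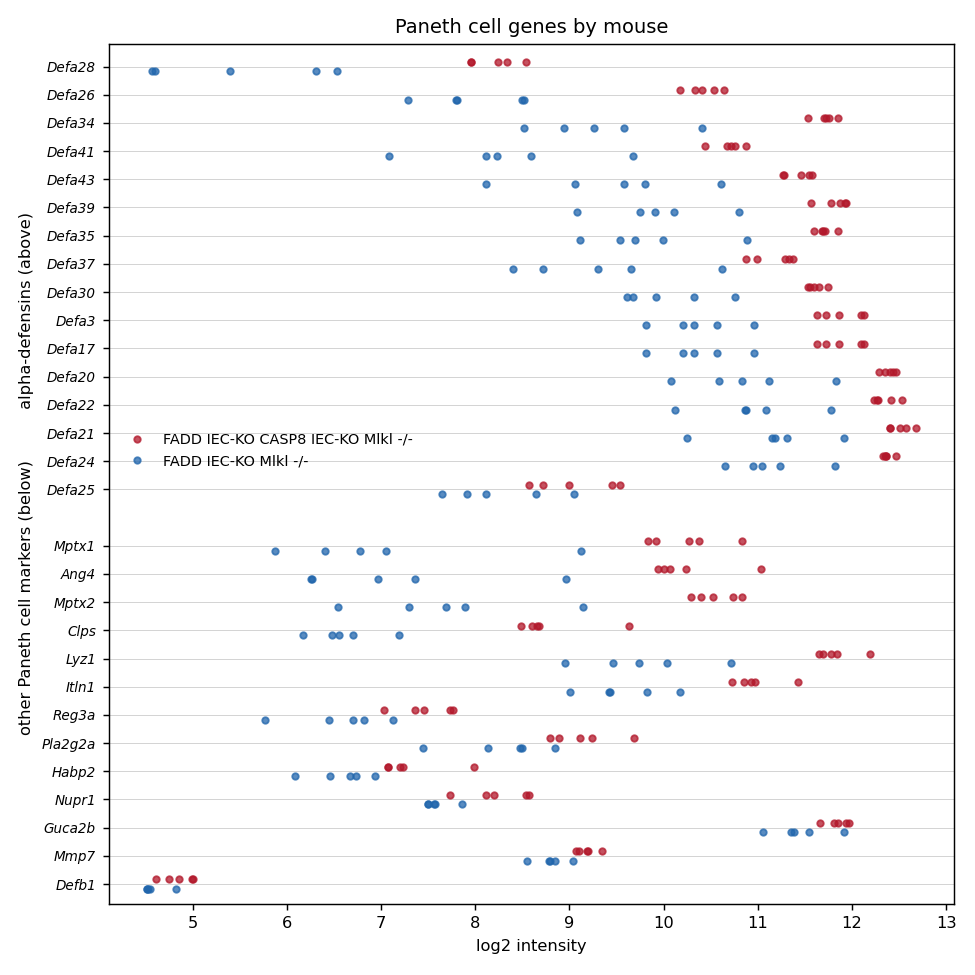
Log2 intensity of the 16 alpha-defensins (upper block) and 13 other Paneth cell markers (lower block) by mouse. Each point is 1 mouse, and within each row triple mutants (red) are drawn over FADD MLKL mutants (blue). Triple mutants were higher without overlap in 15 of the 16 alpha-defensins and 8 of the 13 other markers. Triple mutants cluster tightly, whereas FADD MLKL mutants spread, as in Mptx1 with 5.87 to 9.12.

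Genes of the absorptive brush border also rose, with 13 of 21 measured members higher, 0 lower and a median of 0.43. Over all genes 5.51% were called higher. Quantile normalisation gave 10 higher and 1 lower. Slc2a2, the glucose and fructose transporter GLUT2, measured 7.52, 7.77, 8.68, 7.24 and 7.07 in triple mutants, against 5.23, 5.05, 4.81, 4.71 and 4.89 in FADD MLKL mutants. All triple mutants were well above the narrow range of the FADD MLKL mutants, a 6.58-fold rise (2.72 ± 0.57 on the log2 scale, adjusted p = 0.00226). Slc2a5, the fructose transporter GLUT5, measured 9.20, 9.26, 9.58, 8.77 and 9.05 in triple mutants, against 8.05, 6.15, 6.82, 7.43 and 7.56 in FADD MLKL mutants (1.97 ± 0.44, adjusted p = 0.00352). Treh, which splits trehalose, measured 9.27, 8.69, 8.67, 9.30 and 8.46 in triple mutants, against 7.28, 7.18, 7.24, 7.95 and 7.68 in FADD MLKL mutants (1.41 ± 0.28, adjusted p = 0.00154). Other enterocyte genes of the same list did not pass: sucrase-isomaltase Sis differed by 0.33 (adjusted p = 0.383), lactase Lct by 0.08 (0.758), aminopeptidase N Anpep by 0.09 (0.357) and the fatty acid binding protein Fabp2 by 0.01 (0.969).

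A pair of sodium-coupled solute carriers stood among the 12 largest rises. Slc5a12, a monocarboxylate transporter, measured 9.37, 8.77, 9.19, 9.63 and 7.84 in triple mutants, against 6.80, 6.41, 6.10, 7.75 and 6.86 in FADD MLKL mutants (2.17 ± 0.51, adjusted p = 0.006). Slc5a11, a myo-inositol transporter, measured 7.67, 7.37, 7.39, 7.54 and 6.65 in triple mutants, against 5.08, 4.96, 4.81, 6.38 and 5.11 in FADD MLKL mutants (2.05 ± 0.46, adjusted p = 0.00405). The groups were close at their edges in both genes, where triple mutant replicate 5 was lowest and FADD MLKL mutant replicate 4 highest. Susd2, a sushi domain protein, measured 10.57, 10.08, 9.97, 10.53 and 10.21 in triple mutants, against 8.33, 7.71, 7.94, 8.76 and 8.31 in FADD MLKL mutants. Its groups lay more than 1 log2 unit apart, with a rise of 2.06 ± 0.24 (adjusted p = 3.18e-07).

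Genes of the villus tip, where mature enterocytes break down and take up purine nucleosides, rose in 7 of 10 measured members. In this list 0 were lower and the median was 0.68, and 5.51% of all genes were called higher. Ada, adenosine deaminase, measured 11.36, 10.88, 10.55, 11.19 and 11.22 in triple mutants, against 9.26, 8.79, 9.10, 9.40 and 9.32 in FADD MLKL mutants. The lowest triple mutant exceeded the highest FADD MLKL mutant by more than 1 log2 unit, and the rise was 3.65-fold (1.87 ± 0.26, adjusted p = 1.56e-05). Slc28a2, a sodium-coupled purine nucleoside transporter, measured 9.54, 8.91, 8.61, 8.97 and 9.46 in triple mutants, against 7.41, 6.56, 7.28, 7.53 and 7.15 in FADD MLKL mutants (1.91 ± 0.34, adjusted p = 0.000376). Nt5e, the ectoenzyme CD73 that makes adenosine from AMP, averaged 7.40 ± 0.22 in triple mutants and 6.06 ± 0.24 in FADD MLKL mutants (1.34 ± 0.36, adjusted p = 0.0137). Enpp3, an ectonucleotide pyrophosphatase, rose by 1.15 ± 0.20 (adjusted p = 0.000233). Apoa4, an apolipoprotein of the villus tip, did not pass at 10.34 ± 0.18 in triple mutants and 9.42 ± 0.20 in FADD MLKL mutants (adjusted p = 0.103). The count was 4 without triple mutant replicate 1, without FADD MLKL mutant replicate 1, and with the title number series as a term.

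Lipid absorption genes rose in 10 of 20 measured members, against 5.51% of all genes, with 0 lower (median 0.41). Npc1l1, the sterol transporter of the brush border, measured 11.72, 11.47, 11.55, 11.61 and 11.48 in triple mutants, against 10.91, 10.56, 10.71, 10.84 and 10.78 in FADD MLKL mutants. The difference was small against that of the Paneth cell genes but the ranges were narrow and apart (0.81 ± 0.13, adjusted p = 9.27e-05). Apoa1, the main apolipoprotein of high-density lipoprotein, averaged 12.81 ± 0.03 in triple mutants and 12.21 ± 0.18 in FADD MLKL mutants (0.59, adjusted p = 0.000176). Apob, the structural protein of chylomicrons, rose by 0.37 (adjusted p = 0.00135). Clps is counted in this list as well as among the Paneth cell markers, and Fabp1 is counted here and in the brush border list. Fabp1, the liver-type fatty acid binding protein, rose by 1.03 ± 0.24 (adjusted p = 0.00524), but its probe was dim in both groups, with means of 3.91 in triple mutants and 2.88 in FADD MLKL mutants.

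Fatty acid oxidation genes and targets of PPAR nuclear receptors rose in 7 of 20 measured members with 0 lower (median 0.27). Over all genes 5.51% were called higher. Vnn1, a pantetheinase, measured 10.11, 9.92, 9.99, 10.05 and 9.46 in triple mutants, against 8.16, 8.30, 8.51, 8.76 and 8.64 in FADD MLKL mutants. The groups were apart, and Vnn1 rose by 1.43 ± 0.22 (adjusted p = 5.07e-05). Angptl4, a secreted inhibitor of lipoprotein lipase, rose by 0.83 (adjusted p = 0.0353), and Creb3l3, a membrane-bound transcription factor of lipid metabolism, by 0.62 (adjusted p = 0.0302). The call of Angptl4 was lost without any of triple mutant replicates 1 to 4 or FADD MLKL mutant replicates 1, 2 and 5. That of Creb3l3 was lost without triple mutant replicates 1, 2 or 4 or FADD MLKL mutant replicates 2, 3 or 5. The list's count was 2 without triple mutant replicate 1 or 3, and 1 with the title number series as a term. Of 14 measured cholesterol synthesis genes 2 were called higher, against 5.51% of all genes: Dhcr7 by 0.37 (adjusted p = 0.0249) and Sc5d by 0.32 (adjusted p = 0.0142), both enzymes of the last steps of the pathway. Dhcr7 lost its call without triple mutant replicates 4 or 5 or FADD MLKL mutant replicates 2 or 3. Both genes lost their calls with the title number series as a term, and Sc5d also after quantile normalisation.

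Gasdermins, the pore-forming proteins of pyroptosis, rose in 6 of 9 measured members, against 5.51% of all genes, with 0 called lower (median 0.59). The lowest difference was -0.41, and 1 member separated the groups downwards, as 4.04% of all genes did. A fit of only the 10 arrays and array weights each called 6 members higher and 1 lower. Gsdmc2 measured 8.21, 7.74, 7.40, 8.85 and 7.91 in triple mutants, against 6.39, 5.65, 7.33, 7.12 and 6.70 in FADD MLKL mutants. The groups nearly met, at triple mutant replicate 3 and FADD MLKL mutant replicate 3, and Gsdmc2 rose by 1.38 ± 0.33 (adjusted p = 0.00704). Gsdmc3, Gsdmc4 and Gsdmc, neighbouring copies of Gsdmc2 whose probes may share signal, rose by 1.38, 1.29 and 1.19 (adjusted p = 0.0107, 0.0146 and 0.0176), and their groups overlapped. Gsdmd, the substrate of inflammatory caspases and of caspase-8, measured 9.93, 9.72, 9.62, 9.62 and 9.64 in triple mutants, against 8.96, 9.42, 9.40, 9.34 and 9.36 in FADD MLKL mutants (0.41, adjusted p = 0.00575). Gsdme, cleaved by caspase-3, rose by 0.59 (adjusted p = 0.0272). The count was 3 without triple mutant replicate 4, without FADD MLKL mutant replicate 2, and with the title number series as a term. Gsdmc3 lost its call without FADD MLKL mutant replicate 2, and Gsdmc4 without triple mutant replicate 4 or FADD MLKL mutant replicate 1.

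In the list for antimicrobial and IL-22 genes 3 of 20 measured members rose, against 5.51% of all genes, and 0 fell (median 0.14). The 3 are Ang4, counted above among the Paneth cell markers, Il22ra1 and S100g. Il22ra1, the epithelial subunit of the IL-22 receptor, measured 9.91, 9.33, 9.67, 9.86 and 9.16 in triple mutants, against 8.39, 8.69, 8.65, 8.55 and 8.80 in FADD MLKL mutants. The groups were apart and the rise was 0.97 ± 0.11 (adjusted p = 1.35e-07). S100g, the calcium-binding protein calbindin-D9k, rose by 0.60 (adjusted p = 0.0305), a call lost without triple mutant replicates 1 or 4 or FADD MLKL mutant replicates 2, 3 or 4. The antimicrobial lectins Reg3b and Reg3g, known targets of IL-22, did not pass. Reg3b averaged 13.07 ± 0.04 in triple mutants and 13.04 ± 0.10 in FADD MLKL mutants, and Reg3g averaged 12.63 ± 0.14 in triple mutants and 12.63 ± 0.08 in FADD MLKL mutants (adjusted p = 0.925 for Reg3b and 0.998 for Reg3g), near the top of the array's range of 1.36 to 13.41.

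Smooth muscle genes rose together with the epithelial genes. Of 16 measured members 15 rose and 0 fell, with a median of 0.79, and all 16 separated the groups. Over all genes 5.51% were called higher and 6.87% separated the groups upwards. Hspb6, a small heat shock protein of muscle, measured 9.71, 9.29, 9.19, 9.20 and 9.48 in triple mutants, against 8.27, 8.12, 7.96, 7.88 and 8.26 in FADD MLKL mutants (1.27 ± 0.18, adjusted p = 2.6e-05). Actg2, the enteric smooth muscle actin, measured 11.55, 11.27, 11.03, 11.03 and 11.51 in triple mutants, against 10.16, 10.56, 10.27, 9.96 and 10.26 in FADD MLKL mutants (1.04 ± 0.24, adjusted p = 0.00485). Cnn1, calponin, rose by 0.97 ± 0.23 (adjusted p = 0.00518), and the myosin heavy chain Myh11 by 0.76 (adjusted p = 0.00651). Smtn, smoothelin, was the member that did not pass (0.35, adjusted p = 0.0983). The mean over the list was 10.17, 9.98, 9.87, 9.75 and 9.85 in triple mutants, against 9.18, 9.27, 9.13, 8.91 and 9.20 in FADD MLKL mutants. This muscle signal moved with the groups in the same direction as the Paneth cell, brush border, villus tip and lipid genes, and its part in those results was not tested.

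Stromal and neuronal genes moved the same way in smaller numbers. Fibroblast and matrix genes rose in 5 of 17 measured members, against 5.51% of all genes, with 0 lower (median 0.39). Postn, the matrix protein periostin, averaged 8.62 ± 0.26 in triple mutants and 7.68 ± 0.26 in FADD MLKL mutants (0.93, adjusted p = 0.00335), fibronectin Fn1 rose by 0.80 (adjusted p = 0.014) and the metalloproteinase inhibitor Timp3 by 0.63 (adjusted p = 0.00154). Enteric neuron and glia genes rose in 4 of 14 measured members, against the same 5.51%, with 0 lower (median 0.27). Snap25, a protein of synaptic vesicle fusion, averaged 7.49 ± 0.26 in triple mutants and 6.59 ± 0.19 in FADD MLKL mutants (0.90, adjusted p = 0.00976). The neuronal RNA-binding protein Elavl4 and the intermediate filament peripherin (Prph) rose by 0.62 and 0.61 (adjusted p = 0.0484 and 0.0432), with overlapping groups. With the title number series as a term 0 members of either list were called, and without any of 7 of the 10 mice only 1 neuronal gene was.

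Proliferation genes ran in the other direction. Of 21 measured cell cycle and DNA replication genes 4 fell and 0 rose, 2 of the 21 had a positive difference, and the median was -0.26. Over all genes 2.35% were called lower, and 9983 of 19494 had a positive difference. Ccnb2, a mitotic cyclin, averaged 8.76 ± 0.22 in triple mutants and 9.23 ± 0.12 in FADD MLKL mutants (-0.47, adjusted p = 0.0135). Ccna2, the cyclin of S phase, fell by 0.47 (adjusted p = 0.0345), the survivin gene Birc5 by 0.43 (adjusted p = 0.0138) and the proliferation marker Mki67 by 0.38 (adjusted p = 0.0252). The groups did not overlap in any of the 4, and 4.04% of all genes separated the groups downwards. The count was 1 without triple mutant replicate 2 or FADD MLKL mutant replicate 2, and 7 after quantile normalisation. Cenpw, a centromere protein outside this list, measured 5.15, 5.06, 5.35, 5.32 and 5.22 in triple mutants, against 6.06, 6.12, 6.34, 5.77 and 6.24 in FADD MLKL mutants (-0.89 ± 0.14, adjusted p = 7.76e-05). Among 12 measured stem cell genes Ascl2, a transcription factor of crypt base stem cells, fell by 0.53 (adjusted p = 0.0294), with overlapping groups and a call lost without triple mutant replicates 1, 2 or 3 or FADD MLKL mutant replicates 1, 2 or 4. Lgr5, their surface marker, differed by -0.35 (adjusted p = 0.0615).

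The largest fall after Casp8 was that of Gsta2, a glutathione transferase of detoxification. It measured 8.54, 8.57, 9.17, 8.86 and 8.46 in triple mutants, against 10.43, 10.34, 10.53, 9.97 and 10.24 in FADD MLKL mutants. The groups were apart, and Gsta2 fell by 1.58 (SE 0.19, adjusted p = 3.83e-07), to 0.33 of the FADD MLKL level. Its relative Gsta3 fell by 0.58 (adjusted p = 0.00852). Of 23 measured xenobiotic and glutathione enzymes 3 rose and 3 fell, so the list did not move one way. Over all genes 5.51% were called higher and 2.35% lower. The cytochrome Cyp3a25 rose by 1.91 ± 0.45 (adjusted p = 0.00598), with 6.02 to 7.42 in triple mutants and 4.50 to 5.57 in FADD MLKL mutants.

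Nrg1, the neuregulin ligand of ERBB receptors, measured 6.80, 7.34, 6.90, 7.14 and 7.51 in triple mutants, against 8.27, 8.03, 8.01, 8.19 and 8.70 in FADD MLKL mutants (-1.10 ± 0.21, adjusted p = 0.000868). The PHD finger genes Phf11b and Phf11d, members of a family of similar copies, fell by 1.26 and 1.17 (adjusted p = 0.00688 and 0.0067). Phf11d ranged between 6.97 and 7.60 in triple mutants, against 7.70 and 8.98 in FADD MLKL mutants. Its groups were just apart, whereas those of Phf11b overlapped. Cxcl11, an interferon-induced chemokine, measured 5.51, 5.44, 6.30, 5.79 and 5.87 in triple mutants, against 6.74, 6.31, 6.82, 6.95 and 6.87 in FADD MLKL mutants (-0.95 ± 0.20, adjusted p = 0.00267). Its highest triple mutant and lowest FADD MLKL mutant almost met.

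The rest of the 12 largest falls were smaller or dim. Abca13, a lipid transporter of the ABC family, averaged 3.25 ± 0.34 in triple mutants and 4.51 ± 0.29 in FADD MLKL mutants (-1.26 ± 0.22, adjusted p = 0.000342), low on the array's scale in both groups. Hsd17b6, a hydroxysteroid dehydrogenase, fell by 1.20 (adjusted p = 0.0104), Mboat1, a lysophospholipid acyltransferase, by 0.97 (adjusted p = 0.00335) and Tbrg3 by 0.88 (adjusted p = 2.29e-05). Sprr1a, a small proline-rich protein of injured epithelium, fell by 0.88 (adjusted p = 0.00996) and was the member called among 13 measured repair and fetal-like genes. Over all genes 2.35% were called lower. Hsph1, a large heat shock protein, fell by 0.88 (adjusted p = 0.0338) with overlapping groups, and its call was lost without triple mutant replicates 2, 3, 4 or 5 or FADD MLKL mutant replicates 1, 3 or 5.

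The death receptor, inflammasome, apoptosis and NF-kB lists had few called members, read against 5.51% higher and 2.35% lower over all genes. Among 21 measured genes of the death receptor complex and necroptosis, Casp8 and Mlkl were called. Among 16 inflammasome and pyroptosis genes, Gsdmd rose and the cytosolic DNA sensor Aim2 (-0.73, adjusted p = 0.00267) and the flagellin sensor Naip5 (-0.38, adjusted p = 0.0386) fell. Among 16 apoptosis genes the anti-apoptotic Bcl2l1, which encodes BCL-XL, rose by 0.63 ± 0.10 (adjusted p = 9.4e-05), and Bid, a caspase-8 substrate that starts mitochondrial apoptosis, rose by 0.68 (adjusted p = 0.0233) with overlapping groups. Of the 16 apoptosis genes 11 had a positive difference. Their mean lay between 8.09 and 8.17 in triple mutants and between 7.89 and 8.04 in FADD MLKL mutants, so the groups did not overlap. The NF-kB subunit gene Relb rose by 0.52 (adjusted p = 0.0034), alone among 14 members of its list. Of the calls in these lists, those of Naip5 and Bid were lost without several single mice, Naip5 without any but triple mutant replicate 3 or FADD MLKL mutant replicate 2 and Bid without triple mutant replicates 1, 3 or 4 or FADD MLKL mutant replicates 1 or 3.

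Of 29 measured type I interferon genes Irf7, the transcription factor that amplifies interferon, rose by 0.58 (adjusted p = 0.026) and the antiviral GTPase Mx2 fell by 0.80 (adjusted p = 0.0332). Irf7 lost its call without triple mutant replicates 1, 3 or 4 or FADD MLKL mutant replicates 1 or 4. Mx2 lost its call without triple mutant replicates 1 to 4 or FADD MLKL mutant replicates 2, 3 or 5. Over all genes 5.51% were called higher and 2.35% lower. In limma over all 45 arrays 0 of 27 cytokine and chemokine genes, 0 of 17 interferon gamma genes, 0 of 12 MHC class I genes and 0 of 10 MHC class II genes in these lists were called, and Cxcl11 is counted in none of them. At an unadjusted p under 0.05 there were 3, 1, 0 and 1 members in these 4 lists. A fit of only the 10 arrays called 2 cytokine genes higher, 4 interferon gamma genes lower, 2 class I genes lower and 1 class II gene higher, and array weights called 1 cytokine gene higher and 1 interferon gamma gene lower. Of the 17 interferon gamma genes 3 had a positive difference, and their median was -0.23. The member with the highest mean was Ccl6 among cytokines (difference 0.17, adjusted p = 0.625), Irf1 among interferon gamma genes (-0.02, adjusted p = 0.976), B2m among class I genes (0.01, adjusted p = 0.968) and H2-Ab1 among class II genes (0.13, adjusted p = 0.894).

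Markers of other cell types were counted so that a shift in the makeup of the tissue would show. Their calls are read against 5.51% higher and 2.35% lower over all genes. T cell and intraepithelial lymphocyte genes had 18 of 20 positive differences with a median of 0.39. Their mean was 6.67, 6.86, 6.92, 6.65 and 6.66 in triple mutants, against 6.48, 6.15, 6.49, 6.48 and 6.35 in FADD MLKL mutants, so the groups did not overlap. Over all 45 arrays 1 member was called, the fall of the killer cell receptor Klre1 (-0.42, adjusted p = 0.0255). A fit of only the 10 arrays called 7 members higher and 1 lower, and array weights called 4 higher and 1 lower. This signal moved with the groups, and its part in the other results was not tested. The T cell receptor chain Cd3g averaged 7.81 ± 0.25 in triple mutants and 6.81 ± 0.43 in FADD MLKL mutants (adjusted p = 0.0718). Goblet cell genes gave 1 fall in 15, the disulphide isomerase Agr2 (-0.41, adjusted p = 0.00224). Enteroendocrine genes gave 1 rise and 1 fall in 17, the granin Scg2 (0.64, adjusted p = 0.0293) and cholecystokinin (Cck, -0.39, adjusted p = 0.0175). Tuft cell genes gave 2 rises in 13, the kinase Dclk1 (0.52, adjusted p = 0.0102) and Rgs13 (0.75, adjusted p = 0.0466). Of the 13 tuft cell genes 11 had a positive difference, with a median of 0.20. Their mean lay between 6.02 and 6.19 in triple mutants and between 5.80 and 5.97 in FADD MLKL mutants, so the groups were just apart. B cell genes gave 1 fall in 15, Cd22 (-0.57, adjusted p = 0.0179). Pancreatic acinar genes gave 1 rise in 12, Pnliprp1 (0.48, adjusted p = 0.0259). Several of these calls rested on single mice. Klre1 lost its call without triple mutant replicates 1, 4 or 5 or FADD MLKL mutant replicates 1 or 3, and Scg2 without triple mutant replicates 1, 2 or 3 or FADD MLKL mutant replicates 1, 3 or 4. Cck lost its call without triple mutant replicates 3 or 4 or FADD MLKL mutant replicate 1, and Cd22 without replicate 2 of either group. Pnliprp1 lost its call without triple mutant replicates 1, 2 or 3 or FADD MLKL mutant replicates 3 or 5, and Rgs13 without any mouse but FADD MLKL mutant replicate 4.

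Several smaller lists are read against the same shares over all genes. Immediate early genes rose in 4 of 16 measured members, among them the mRNA decay factor Zfp36 (0.64, adjusted p = 0.00193), Jun (0.61, adjusted p = 0.000169) and Btg2 (0.58, adjusted p = 0.00237). Of the 16 immediate early genes 15 had a positive difference, with a median of 0.30. Their mean lay between 7.77 and 8.01 in triple mutants and between 7.49 and 7.62 in FADD MLKL mutants. Such genes are known to respond fast to handling of tissue, and the part of handling was not tested. Per the labels the tissue was frozen on dry ice right after collection. Of 10 zinc and metallothionein genes the epithelial zinc transporters Slc39a5 (0.70, adjusted p = 0.000252) and Slc39a4 (0.54, adjusted p = 0.000483) rose. Of 13 bile acid and cobalamin genes the cobalamin carrier Tcn2 (0.70, adjusted p = 0.000868) and the cobalamin receptor subunit Amn (0.47, adjusted p = 0.0482) rose. Of 17 circadian genes 15 had a positive difference, with a median of 0.44. Their mean was 7.98, 7.96, 7.91, 7.80 and 7.97 in triple mutants, against 7.79, 7.21, 7.43, 7.62 and 7.56 in FADD MLKL mutants, which nearly met. Cry2 was called over all 45 arrays (0.66, adjusted p = 0.0171), 4 members were called higher in a fit of only the 10 arrays, and the time of day of collection is not given. Of 16 chaperone and unfolded protein genes Hspa5, the chaperone BiP, fell by 0.33 (adjusted p = 0.02). The call of Cry2 was lost without FADD MLKL mutant replicates 2 or 5, that of Hspa5 without triple mutant replicate 2 or FADD MLKL mutant replicate 5, and that of Amn without any mouse but triple mutant replicate 5.

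**Figure D4:**
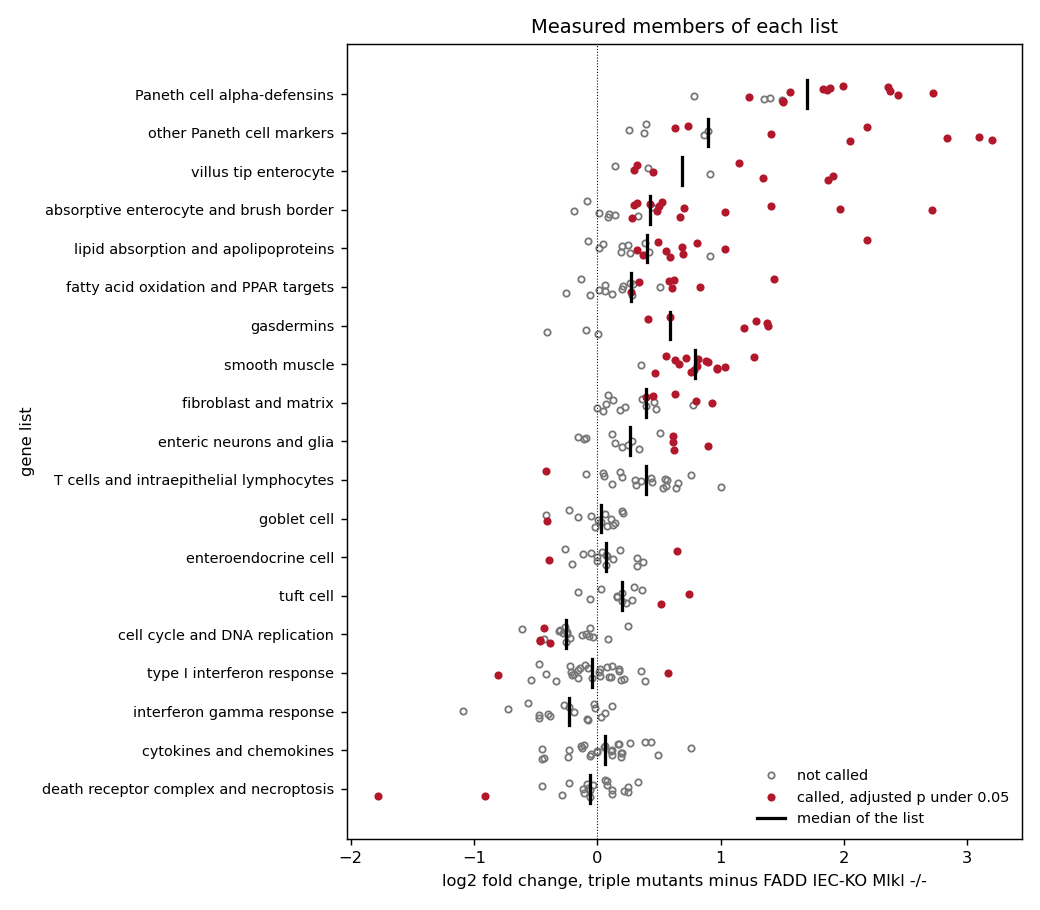
Log2 fold change, triple mutants minus FADD MLKL mutants, of every measured member of 19 gene lists. Filled red points are called genes, open points are not called, and black bars give each list's median. The 16 alpha-defensins have the highest median, 1.70, and cell cycle genes sit left of 0 with a median of -0.26.

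The levels in all 9 groups place this comparison, and they are given as a description because the calls themselves set the 2 groups apart. In 963 of the 1533 called genes (62.8%) the FADD MLKL mutants stood at the far end of the 9 group means, lowest where the gene rose and highest where it fell. In 854 called genes (55.7%) the triple mutants stood at the opposite end, and in 445 both did. In 1134 called genes (74%) the triple mutants lay nearer than the FADD MLKL mutants to the mean of the floxed mice. Ada averaged 11.04 ± 0.32 in triple mutants and 9.17 ± 0.24 in FADD MLKL mutants, and the other 7 groups lay between 10.69 and 11.55. Slc2a2 had both its ends in this pair, with 7.66 ± 0.63 in triple mutants, 4.94 ± 0.20 in FADD MLKL mutants and 5.28 to 6.42 in the others. Hspb6 did too, at 9.37 in triple mutants and 8.10 in FADD MLKL mutants against 8.34 to 9.10 elsewhere.

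Alpha-defensin levels fell into another order. The mean over the 16 genes was 11.33 ± 0.12 in triple mutants, 9.56 ± 0.62 in FADD MLKL mutants, 11.07 ± 0.22 in CASP8 IEC-KO Mlkl -/- mice, 10.74 in FADD IEC-KO RIPK3 IEC-KO mice, 7.60 in FADD IEC-KO Zbp1 -/- mice, 8.76 in FADD IEC-KO mice, 8.62 in CASP8 IEC-KO mice, 11.42 in Fadd fl/fl mice and 11.30 in Casp8 fl/fl mice. The mean of the triple mutants thus lay between those of the floxed groups. The FADD MLKL mutants lay between the triple mutants and the single epithelial knockouts (SD 0.93 in FADD IEC-KO and 1.77 in CASP8 IEC-KO mice), and their difference from these was not tested. Gsta2 was lowest in the floxed groups and the triple mutants. It averaged 8.72 ± 0.30 in triple mutants, 8.56 in Fadd fl/fl mice and 8.62 in Casp8 fl/fl mice. The FADD MLKL mutants averaged 10.30 ± 0.21, and the remaining groups lay between 9.10 and 10.45. Phf11d followed neither order: CASP8 IEC-KO Mlkl -/- mice, at 8.65, were as high as the FADD MLKL mutants, at 8.37, the triple mutants averaged 1.17 less than the FADD MLKL mutants, and the 6 groups with an intact Mlkl gene lay between 6.12 and 6.85.

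**Figure D5:**
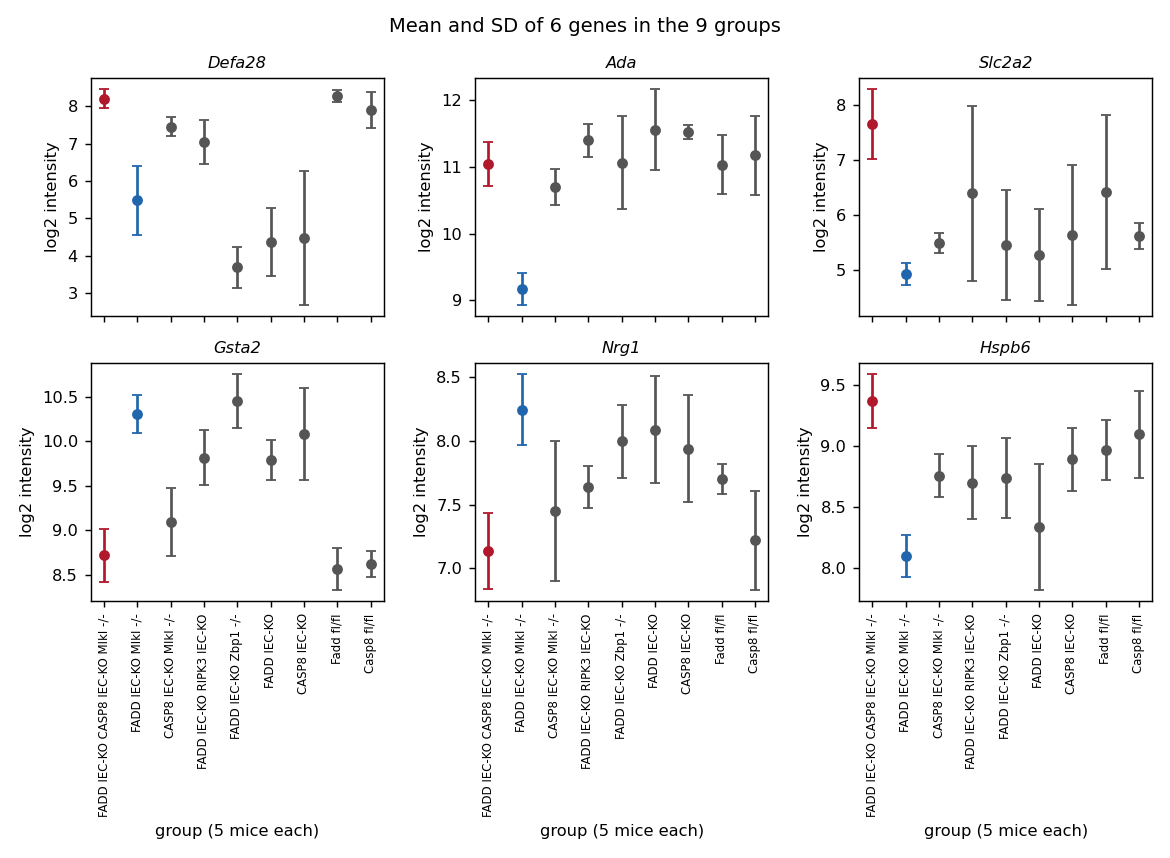
Mean and SD of the log2 intensity of Defa28, Ada, Slc2a2, Gsta2, Nrg1 and Hspb6 in the 9 groups of 5 mice. Triple mutants are red, FADD MLKL mutants blue and the other groups grey. Ada is low in FADD MLKL mutants alone (9.17), Slc2a2 is highest in triple mutants (7.66), and Defa28 is as high in triple mutants (8.21) as in Fadd fl/fl mice (8.28).

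Whether caspase-8 loss changed the same genes in mice that keep FADD and MLKL was tested by the difference between (triple mutants minus FADD MLKL mutants) and (CASP8 IEC-KO minus Casp8 fl/fl), which share no array. It was called for 2478 genes (12.7%), 1262 upwards (6.47%) and 1216 downwards (6.24%). All 16 alpha-defensins and 11 of 13 other Paneth cell markers were called upwards. Defa28 rose by 2.73 where FADD and MLKL were already lost and differed by -3.43 in CASP8 IEC-KO mice, so the changes differed by 6.16 ± 0.68 (SE, adjusted p = 1.41e-07). Mptx1 gave a difference of 6.80 ± 1.04 (adjusted p = 2.92e-05), Mptx2 of 6.34 (adjusted p = 1.02e-05) and Defa34 of 5.76 (adjusted p = 1.53e-05). Gsta2 ran the other way: it fell by 1.58 here and rose by 1.46 in CASP8 IEC-KO mice (difference -3.04 ± 0.26, adjusted p = 4.12e-10).

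In 3 other genes CASP8 IEC-KO mice were higher than Casp8 fl/fl mice, and the change here was not called. Car1, a carbonic anhydrase of the large intestine, rose by 4.09 in CASP8 IEC-KO mice and was not called in triple mutants (-0.66, adjusted p = 0.648; difference -4.75, adjusted p = 0.00133). Nox1, an epithelial NADPH oxidase, rose by 2.53 in CASP8 IEC-KO mice, with a change of -1.48 here (adjusted p = 0.105; difference -4.01, adjusted p = 0.000924). Il1rn, the IL-1 receptor antagonist, rose by 2.62 in CASP8 IEC-KO mice, with a change of -1.04 here (adjusted p = 0.107; difference -3.65, adjusted p = 3.49e-05). The difference was called upwards in 11 of 21 brush border genes and in 5 of 10 villus tip genes. Slc2a2 gave 2.72 here and 0.02 in CASP8 IEC-KO mice (difference adjusted p = 0.0216), and Ada gave 1.87 here and 0.35 in CASP8 IEC-KO mice (difference adjusted p = 0.00486). Casp8 itself fell by 1.78 here and by 1.12 in CASP8 IEC-KO mice (difference -0.67, adjusted p = 0.0168).

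Genes that flank a targeted gene can differ between strains for reasons of breeding, so called genes were counted among the 50 annotated genes on either side of each. Near Casp8 on chromosome 1, 3 of 39 measured genes were called (7.69%, against 7.86% of all genes). Near Fadd on chromosome 7 there were 5 of 34 (14.71%), with Ano1 next to Fadd and Cttn, the actin regulator cortactin, 3 genes away (0.49 ± 0.07, adjusted p = 1.56e-05). Near Mlkl on chromosome 8 there were 6 of 41 (14.63%), and Dhcr7 and Ascl2, described above, belong to the genes near Fadd. The part of flanking alleles in these genes was not tested.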

How the data were processed

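Expression was measured in 45 ileum samples on Affymetrix whole-transcript arrays. The authors deposited log2 values in 1 table for all arrays, and per the submitters' processing notes they used the Expression Console and the Transcriptome Analysis Console. The summarisation and background method is not given in the sources used here, and the table carries no detection calls. The values ran from 1.36 to 13.41 and were used as deposited. Of 22142 probes, 19527 carry 1 gene symbol, 0 carry several and 2615 carry none. For the 33 genes with several probes, the probe with the highest mean over all arrays was kept, which left 19494 genes.

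The fit was limma 3.58.1 in R 4.3.3 with lmFit and eBayes, 1 mean per group over all 45 arrays and Benjamini-Hochberg adjustment over 19494 genes. Genes with an adjusted p under 0.05 are called. In simulated data on 19494 genes, for triple mutants minus FADD MLKL mutants, it recovered 97% of genes changed by 1 and 100% of genes changed by 2 on the log2 scale, with 7 false calls. The changed genes were drawn at random, with independent normal noise and no series shift. Recovery in genes with a wide spread can be lower than these shares. Groups came from the sample titles. Alternatives were a fit of only the arrays compared, a covariate for the title number series or for sex, quantile normalisation, median centring, a filter on dim genes (mean of at least 5), other variance models, all probes, and each mouse left out. Xist is not analysed here, so the sex covariate is the mean of Y-linked genes. Among the 2615 probes without a symbol 164 were called when all probes were tested.

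The members and the 43 gene lists were chosen with earlier results of these data known. Named genes are the targeted genes, the 12 largest rises and falls among called genes with a characterised symbol, up to 3 called members per list (or its highest member), and the 4 largest differences each way from CASP8 loss. Other list members are named after their values were seen. Promoters come from RefSeq, GRCm38.p6. Tables and plots were made with Python 3.11.15, pandas 2.3.3 and matplotlib 3.10.9.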

Additional observations from a re-analysis of the deposited data

Results flagged for a closer look

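In some genes 1 mouse stood far from the other 4 of its group. Among triple mutants, replicate 4 was high in Ang4 (11.03, others 9.94 to 10.24), Clps (9.63, others 8.49 to 8.68) and Lyz2 (10.96, others 10.18 to 10.35), and low in Ccl6 (9.78, others 9.92 to 9.96). Replicate 5 was high in Ripk3 (8.68, others 8.34 to 8.43) and low in Bcl2l1 (8.47, others 8.67 to 8.73), Amn (8.44, others 8.71 to 8.81) and Kit (8.19, others 8.62 to 8.75). Replicate 2 was low in Agr2 (10.19, others 10.40 to 10.46) and high in Dclk1 (7.43, others 6.98 to 7.07). Among FADD MLKL mutants, replicate 4 was high in Slc5a11 (6.38, others 4.81 to 5.11) and H2-Ab1 (11.63, others 11.48 to 11.52), replicate 1 low in Gsdmd (8.96, others 9.34 to 9.42) and replicate 2 high in Prph (5.73, others 5.20 to 5.34). These are 14 of the 198 groups of values examined (7.07%), by a gap above Dixon's critical value, which chance passes in about 1 in 20 groups.

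The change with caspase-8 loss differed, by the test of the difference itself, between mice without FADD and MLKL and mice that keep both for 2478 genes. Among the named genes the difference was 6.80 for Mptx1, 6.34 for Mptx2, 6.16 for Defa28, 5.76 for Defa34, -4.75 for Car1, -4.01 for Nox1, -3.65 for Il1rn and -3.04 for Gsta2, all on the log2 scale. No explanation was tested.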

How the results depend on the processing

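The 1533 calls became 667 with the title number series as a covariate (410 higher, 257 lower) and 2839 with array weights, and ranged from 935 (without triple mutant replicate 1) to 1576 when 1 mouse was left out. The causes were not tested. The share of calls that were higher was 70.1%, against 49% after quantile normalisation (866 higher, 901 lower) and 58.1% after centring (881 higher, 635 lower). The 2478 calls of the difference from CASP8 loss ranged from 1634 (without CASP8 IEC-KO replicate 2) to 2816 with 1 mouse left out, and the higher share of 50.9% became 38.2% after centring (1013 higher, 1638 lower). Of 84 named calls, 57 held with each mouse left out in turn and 46 under every alternative run. The title number series as a covariate lost 33 of them, among them Phf11b, Hsd17b6, Nt5e, Lyz2, Postn, Fn1, Timp3, Snap25, Birc5, Dclk1 and Zfp36, and reversed 0. Sign changed only in genes that were not called. With 1 mouse left out, Fadd ranged from -0.18 to 0.12 (0.12 without triple mutant replicate 2, 0.03 without FADD MLKL mutant replicate 3), Irf1 from -0.0784 to 0.0323, B2m from -0.00604 to 0.0290 and Krt19 from -0.0236 to 0.0364. With the number series as a covariate Irf1 gave 0.20, Lcn2 -0.0971, Krt19 -0.0551 and Slc4a1 0.12. B2m gave -0.0167 after quantile normalisation and -0.0197 after centring, and Krt19 gave -0.0677 and -0.0187. No paired analysis was possible because the titles of the groups share no numbers. The table carries no detection calls, so dim genes such as Fabp1 and Abca13 could not be set against background.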
